A study of Mus musculus with 6 samples.

Results

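The gene group described here holds 36 genes of the cell cycle, chosen by name from the annotation of mouse whole-genome arrays. The choice was made with earlier results of these data known. By role they are 24 mitotic genes, 9 replication genes (Mcm2 to Mcm7, Rrm2, Tyms and Pcna) and 3 others, the transcription factors Foxm1 and E2f1 and the thymidine kinase Tk1. They are 36 of the 19749 genes that the arrays could be matched to by RefSeq accession, each read from its brightest probe. Of the 36, 35 were well above background on at least 1 array and 34 on all 6, against 17615 and 15685 of the 19749 genes. Aurkb, a kinase of the chromosomal passenger complex, was never well above background, and Cenpf, a kinetochore protein, was well above it on 4 of 6 arrays.

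Total RNA of whole lung was measured on 6 one-colour arrays, 1 for each of 6 groups. The groups were wild type (WT) C57BL/6 mice and mice of the same strain labelled FcRg KO or FceRIa KO, and lungs of each were taken after PBS or mouse HRF (histamine-releasing factor) through the nose. HRF is a secreted protein that can bind antibodies of the IgE class, FcRg is the signalling chain of several Fc receptors, and FceRIa is the IgE-binding chain of the high-affinity IgE receptor. The comparisons ask how the lung's response to HRF depends on these receptor chains. The labels used here do not give the dose, the time after the challenge, the age of the mice, or whether an array holds RNA of 1 mouse or of several. Every value below is log2 of the processed signal relative to the array's 75th percentile, so 0 marks that percentile, and levels of different genes cannot be set against each other because their probes differ.

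A dividing cell copies its DNA in S phase and separates the copies in mitosis, and both sets of genes are switched on in turn. Replication genes are transcribed around the start of S phase under E2F factors: the Mcm proteins form the helicase that opens DNA, Pcna is the clamp that holds the polymerase, and Rrm2 and Tyms make DNA precursors. Mitotic genes peak later, in G2 and mitosis, under the DREAM and MuvB complexes, B-Myb and Foxm1, and they encode cyclins, kinases, spindle motors and kinetochore proteins. In an adult lung most cells are at rest, and the signal of these genes comes mainly from the few cells in cycle, such as proliferating leukocytes, endothelium or epithelium. In whole tissue, fewer cells in cycle and less RNA per cell cannot be told apart.

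The 75th percentile of the processed signal lay between 1186 and 1604 over the 6 arrays, and no spot was saturated. Probes spotted at least 5 times on an array had a median SD of 0.06 to 0.07 over their spots on the log2 scale, which covers the array surface and not the spread between mice. The labels were checked before use. Fcer1g, which encodes FcRg, stood at 4.16 (PBS) and 4.33 (HRF) with the FcRg KO label, against 3.94 and 4.63 in WT. Fcer1a stood at -0.89 and -1.15 with the FceRIa KO label, against -4.46 and -4.17 in WT. Under its label Fcer1g was thus above WT on PBS and below it on HRF, and Fcer1a was above WT on both arrays. Neither level bears out a knockout, and whether the probes lie in the deleted parts is not known here. The genotype of these arrays therefore rests on the labels alone, and every value given for FcRg KO or FceRIa KO is that of an array so labelled. All 13 measured markers of lung epithelium and endothelium were well above background on every array. Both arrays labelled FcRg KO stood apart in the list of B cell and germinal centre markers: its median deviation from each gene's mean over the 6 arrays was -2.13 and -2.16 there, against 0.91 to 1.32 on the other 4.

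HRF to PBS ratios of the mitotic genes lay on opposite sides of 0 in the lungs labelled FcRg KO and FceRIa KO, and those of the replication genes, Rrm2 apart, lay near 0 in both. Among the 22 mitotic genes measured on all 6 arrays, the HRF array labelled FcRg KO was above its PBS array for 22, with a median ratio of 0.66 on the log2 scale (1.58-fold) and a range of 0.36 to 0.89, where 49.2% of all genes were higher. With the FceRIa KO label the HRF array was below its PBS array for 21 of the 22, with a median ratio of -0.56 (0.68-fold) and a range of -0.89 to 0.48, where 47.8% of all genes were higher. In WT the median was -0.03, 7 of the 22 were higher, where 43.4% of all genes were, and single genes lay between -0.35 and 0.22. The 9 replication genes had medians of 0.11 in WT, 0.08 with the FcRg KO label and -0.07 with the FceRIa KO label. On HRF, 7 of the 9 were higher in WT and 7 of the 9 with the FcRg KO label. With the FceRIa KO label 7 of the 9 were lower. With 1 array per group none of these ratios has a replicate check.

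Counted at 1.5-fold, 15 of the 35 compared members were higher on the HRF than on the PBS array with the FcRg KO label, where 3.44% of 16606 genes were. All 15 are mitotic. A single member, Cenpf, was at least 1.5-fold lower there, where 3.93% of genes were. With the FceRIa KO label 7 of 35 members were at least 1.5-fold lower, where 2.54% of 16326 genes were: Prc1, Kif20a, Ccna2, Mki67, Tpx2, Cenpe and Cdk1. Over the settings tried this count ran from 4 to 10. It was 4 with normexp background correction and quantile normalization, and 4 with scaling on the array median. Cenpf alone was at least 1.5-fold higher there, where 4.05% of genes were. In WT no member passed 1.5-fold in either direction, where 5.54% of 17445 genes were higher and 8.98% lower. The thresholds fall among close values. Aurka (0.59) and Bub1 (0.59) lay just past 1.5-fold with the FcRg KO label, and Kif11 (0.58) and Tpx2 (0.58) just under it.

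**Figure D1:**
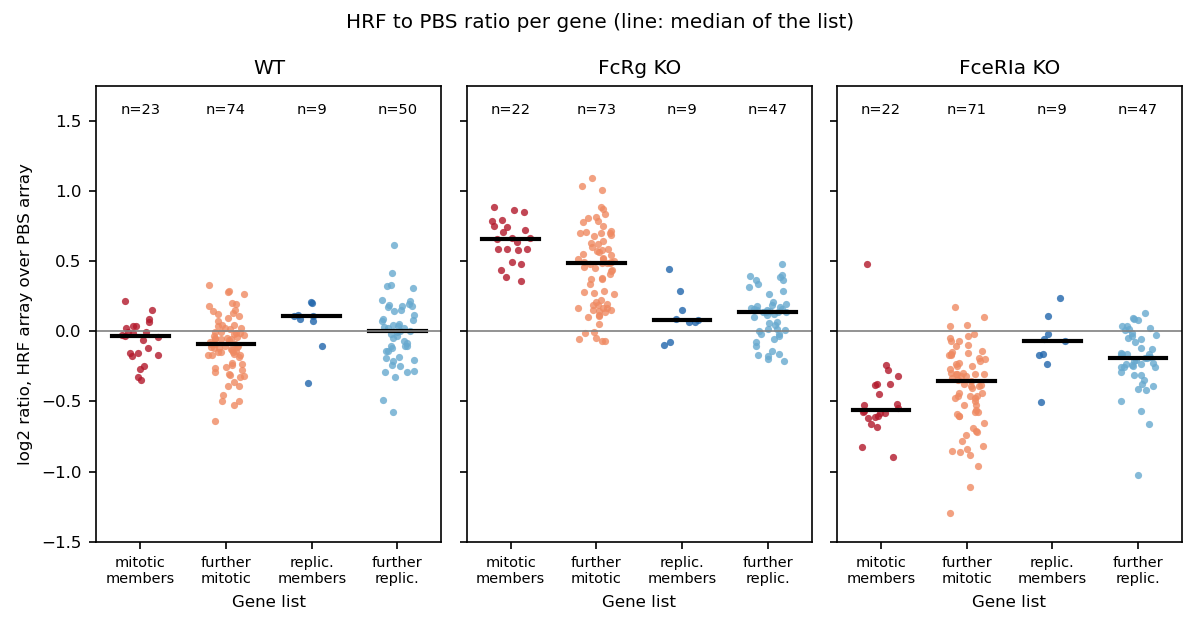
Each point is 1 gene's log2 ratio of the HRF array over the PBS array, for the labels WT, FcRg KO and FceRIa KO, among genes well above background on both arrays, and the black line is the list's median. Mitotic members lie above 0 with the FcRg KO label and, except Bub1b, below 0 with the FceRIa KO label. Further mitotic genes lie on both sides of 0 with either label. Of the 9 replication members, 8 lie between -0.23 and 0.29 in all 3 panels and Rrm2 lies between -0.50 and 0.45.

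The roles also differ in their promoters, which the choice of genes did not use. The sequences below are from RefSeq on GRCm38.p6 and hold the 250 bases before the transcription start, read 5′ to 3′ on the gene's strand. They are shown for the 4 mitotic and 3 replication genes with the largest range among those measured on all 6 arrays that have a promoter in the table, and for Mcm6, added after the motif counts were seen because it holds several E2F matches. Capitals mark 3 motifs on either strand: CCAAT (or ATTGG), the binding motif of NF-Y; TTTGAA (or TTCAAA), the core of the cell cycle genes homology region (CHR) bound by MuvB complexes; and TTTNNCGC or its reverse complement, the E2F motif.
Prc1 (chr7:80294201-80294450, plus strand): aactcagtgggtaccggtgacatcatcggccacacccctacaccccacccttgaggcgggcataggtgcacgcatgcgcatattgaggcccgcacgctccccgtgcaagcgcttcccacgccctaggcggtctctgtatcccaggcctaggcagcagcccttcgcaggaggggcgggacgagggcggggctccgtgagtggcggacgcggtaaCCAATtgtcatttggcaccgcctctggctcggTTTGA
Cdk1 (chr10:69352913-69353162, minus strand): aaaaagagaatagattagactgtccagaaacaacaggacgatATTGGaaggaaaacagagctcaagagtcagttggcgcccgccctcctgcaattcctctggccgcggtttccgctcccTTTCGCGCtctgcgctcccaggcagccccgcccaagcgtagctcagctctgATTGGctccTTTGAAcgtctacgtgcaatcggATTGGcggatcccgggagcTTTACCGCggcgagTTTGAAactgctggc
Ccnb2 (chr9:70421555-70421804, minus strand): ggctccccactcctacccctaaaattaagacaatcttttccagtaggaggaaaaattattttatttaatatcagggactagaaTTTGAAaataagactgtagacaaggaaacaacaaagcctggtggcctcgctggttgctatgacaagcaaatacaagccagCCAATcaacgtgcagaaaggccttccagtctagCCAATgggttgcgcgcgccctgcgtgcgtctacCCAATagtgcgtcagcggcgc
Birc5 (chr11:117848987-117849236, plus strand): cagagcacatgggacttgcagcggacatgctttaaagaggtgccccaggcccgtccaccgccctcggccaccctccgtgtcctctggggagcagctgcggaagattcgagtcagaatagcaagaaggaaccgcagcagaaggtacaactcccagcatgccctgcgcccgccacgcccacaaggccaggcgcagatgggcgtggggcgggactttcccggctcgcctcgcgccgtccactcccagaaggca
Rrm2 (chr12:24708004-24708253, plus strand): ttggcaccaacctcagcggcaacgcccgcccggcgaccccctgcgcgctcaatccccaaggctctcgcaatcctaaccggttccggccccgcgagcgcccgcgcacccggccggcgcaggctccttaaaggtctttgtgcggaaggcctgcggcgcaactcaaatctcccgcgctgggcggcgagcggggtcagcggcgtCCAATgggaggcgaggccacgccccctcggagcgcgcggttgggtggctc
Mcm2 (chr6:88898781-88899030, minus strand): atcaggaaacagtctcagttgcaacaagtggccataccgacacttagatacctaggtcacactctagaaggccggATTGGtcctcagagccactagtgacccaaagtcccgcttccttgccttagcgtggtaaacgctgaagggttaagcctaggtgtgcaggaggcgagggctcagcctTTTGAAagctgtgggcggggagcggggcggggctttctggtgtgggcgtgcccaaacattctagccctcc
Tyms (chr5:30073626-30073875, minus strand): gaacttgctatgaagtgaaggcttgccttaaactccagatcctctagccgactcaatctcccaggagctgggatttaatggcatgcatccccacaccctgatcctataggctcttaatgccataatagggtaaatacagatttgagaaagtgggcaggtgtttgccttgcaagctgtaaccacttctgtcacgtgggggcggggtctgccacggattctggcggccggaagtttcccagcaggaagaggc
Mcm6 (chr1:128359706-128359955, minus strand): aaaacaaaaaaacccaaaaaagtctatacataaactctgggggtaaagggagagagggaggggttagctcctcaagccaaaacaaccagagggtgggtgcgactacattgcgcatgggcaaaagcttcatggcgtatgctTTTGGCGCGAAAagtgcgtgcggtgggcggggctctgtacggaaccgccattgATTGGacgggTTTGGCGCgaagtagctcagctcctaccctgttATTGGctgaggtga
In Prc1 the CHR core starts at -5, so its last base lies past the printed part. Cdk1 holds 2 CHR cores, at -71 and -15, with 3 CCAAT matches and 2 E2F matches. Ccnb2 has 3 CCAAT matches, at -87, -54 and -21, and a CHR core at -167, with another 5 bases past the start. Birc5 holds none of the 3 motifs in this window. Among the replication genes, Mcm2 has a CHR core at -70, Rrm2 has 1 CCAAT match, and Tyms has an E2F match only past the start, at 42. Mcm6 has E2F matches at -110, -106 and -47, of which those at -110 and -106 overlap on opposite strands.

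Over all members with a promoter in the table, counted from 250 bases before to 50 bases after the start, the CHR core TTTGAA was present in 15 of 20 mitotic and 1 of 8 replication genes, against 20.2% of all 27025 genes in the table. The E2F motif TTTNNCGC was the other way round, in 1 of 20 mitotic genes (Cdk1) and 5 of 8 replication genes (Mcm3, Mcm5, Mcm6, Mcm7 and Tyms), against 5.93% of genes. In the lists of further genes of the same processes, the E2F motif was in 16 of 64 mitotic and 15 of 39 replication genes, and the CHR core in 38 of 64 and 9 of 39. CCAAT was common to both, in 17 of 20 and 7 of 8, against 41.1%, and so was the GC box GGGCGG, in 16 of 20 and 7 of 8, against 38.2%. TATAAA was found in 1 of 20 and 0 of 8, against 15.7%. CCAAT and TTTGAA stood together in 14 of 20 mitotic genes and 1 of 8 replication genes, against 7.97% of genes. A match is a description of these letters, and its part in the array values was not tested. Ccna2, Aurkb, Kif20a, Tpx2, Mcm4 and Foxm1 are not in the table used.

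Kif20a and Prc1 had the largest ranges among the 22 mitotic genes measured on all 6 arrays. Kif20a, a kinesin of the central spindle needed for cytokinesis, stood at -1.30 in WT given PBS and -1.21 in WT given HRF, at -1.20 and -0.35 with the FcRg KO label, and at -0.92 and -1.75 with the FceRIa KO label. The HRF array labelled FcRg KO is the highest and that labelled FceRIa KO the lowest, with the other 4 closer together, and the extremes differ 2.64-fold. Prc1, which bundles the microtubules of the central spindle, stood at 0.43 and 0.31 in WT, at 0.25 and 1.05 with the FcRg KO label, and at 0.55 and -0.35 with the FceRIa KO label. Its order at the extremes was the same, with a 2.63-fold range.

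Cdk1, the kinase that drives entry into mitosis, stood at -1.80 and -1.95 in WT on PBS and HRF, at -2.32 and -1.46 with the FcRg KO label, and at -2.05 and -2.65 with the FceRIa KO label. Here the PBS array labelled FcRg KO was itself below the other PBS arrays. Ccnb2, a cyclin partner of Cdk1, stood at 0.68 and 0.89 in WT, at 0.62 and 1.37 with the FcRg KO label, and at 0.90 and 0.32 with the FceRIa KO label. Tpx2, which activates Aurka on the spindle, stood at -1.85 and -1.81 in WT, at -1.88 and -1.30 with the FcRg KO label, and at -1.73 and -2.34 with the FceRIa KO label. For all 3 genes the HRF arrays of the labelled knockouts were the highest and the lowest, and the WT arrays differed by no more than 0.22.

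The other mitotic genes are given by what their products do. Among cyclins and regulators of their breakdown, HRF to PBS ratios with the FcRg KO label were 0.67 for Ccna2, 0.72 for Ccnb1, 0.71 for the ubiquitin-conjugating enzyme Ube2c and 0.39 for Cdc20, the activator of the anaphase-promoting complex. With the FceRIa KO label the same genes stood at -0.68, -0.39, -0.37 and -0.58. Among kinases and checkpoint proteins, Plk1 stood at 0.49 and -0.57, Aurka at 0.59 and -0.32, and the spindle checkpoint kinase Bub1 at 0.59 and -0.55, FcRg KO label first. The chromosomal passenger proteins Birc5 (survivin) and Cdca8 (borealin) stood at 0.78 and -0.52 and at 0.48 and -0.58. Among motors and spindle proteins, Cenpe had the largest ratio of all members with the FcRg KO label, 0.89 (1.85-fold), and stood at -0.61 with the FceRIa KO label. Kif23, Kif2c and Nusap1 stood at 0.43, 0.64 and 0.75 with the first label and at -0.45, -0.27 and -0.24 with the second. Mki67, which encodes the proliferation marker Ki-67, stood at 0.66 and -0.66, and Top2a, the topoisomerase that untangles DNA, at 0.66 and -0.53.

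The mitotic genes with the smallest ranges kept the direction. Kif11, the motor that separates spindle poles, stood at -3.78 and -4.02 in WT, at -4.14 and -3.56 with the FcRg KO label, and at -3.76 and -4.13 with the FceRIa KO label, a log2 range of 0.58, with the PBS array labelled FcRg KO as its lowest. Aurka, a kinase of the spindle poles, stood at -0.60 and -0.53 in WT, at -0.88 and -0.29 with the FcRg KO label, and at -0.63 and -0.95 with the FceRIa KO label. Bub1b, which encodes the checkpoint protein BubR1, did not follow the pattern: it stood at -1.82 and -1.83 in WT, at -1.91 and -1.55 with the FcRg KO label, and at -1.72 and -1.24 with the FceRIa KO label. Its highest array was the one on which 20 of the other mitotic genes were lowest.

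Cenpf was the only member at least 2-fold apart between the HRF and PBS arrays of a label, and its signals were close to background. Its probe read -5.86 and -6.18 in WT, -5.31 and -6.55 with the FcRg KO label, and -7.17 and -4.74 with the FceRIa KO label, and was not well above background at -6.55 and -7.17. Against the measured value or the lowest measured signal of that array, it was at least 2.35-fold lower on the HRF than on the PBS array with the FcRg KO label, where 1.63% of genes were at least 2-fold lower. With the FceRIa KO label it was at least 5.37-fold higher, where 1.97% of genes were at least 2-fold higher. The first direction was that of no other mitotic gene, and the second that of Bub1b alone.

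**Figure D2:**
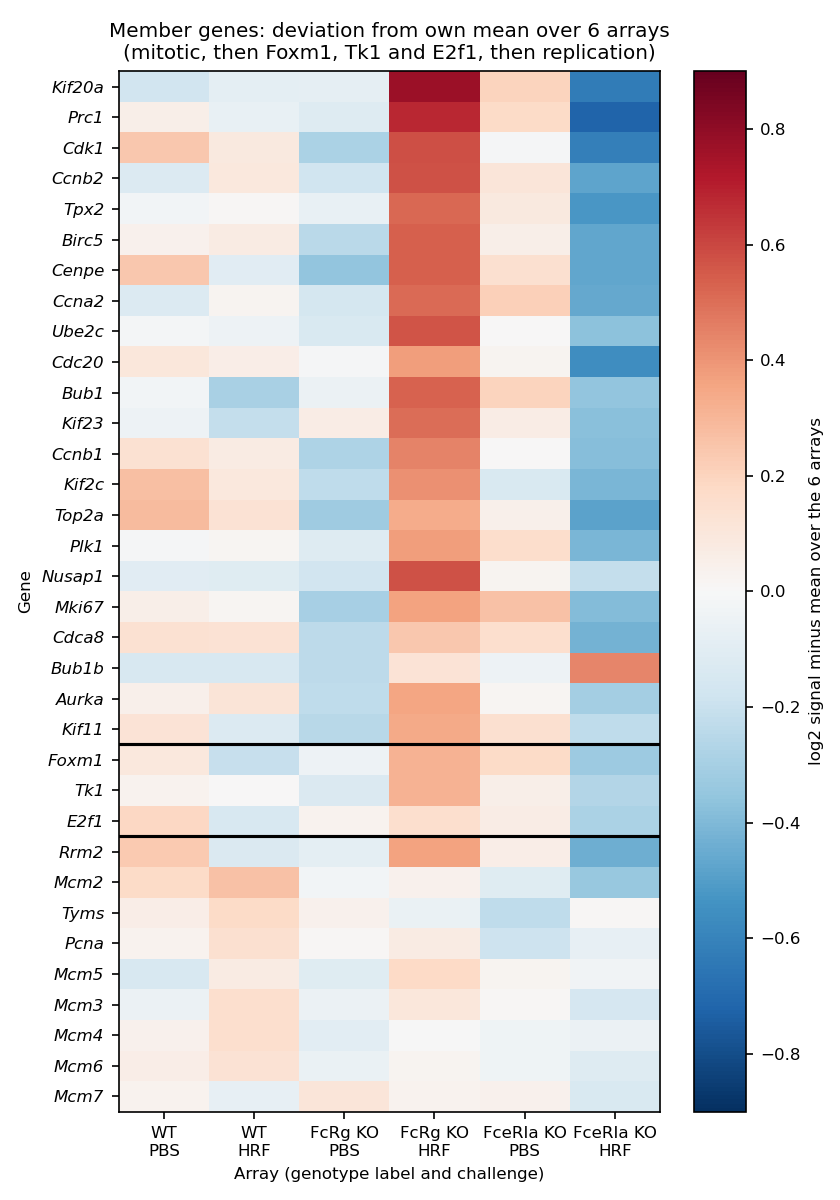
Colours give each gene's log2 signal minus its own mean over the 6 arrays, for the 34 members well above background on all of them, with arrays as columns and genes as rows sorted by range within the mitotic genes (top), Foxm1, Tk1 and E2f1 (middle) and the replication genes (bottom). The column of the HRF array labelled FcRg KO is the highest for 21 of 22 mitotic genes and that of the HRF array labelled FceRIa KO the lowest for 20. Of the 9 replication genes, 6 are highest on the WT HRF array and 5 are lowest on the HRF array labelled FceRIa KO.

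The replication genes spanned less of the scale, and most of them peaked on another array. Their median range over the 6 arrays was 0.32, against 0.88 for the mitotic genes and 0.42 for all 15685 genes measured on every array. A range of at least 1.5-fold was reached by 21 of 22 mitotic and 2 of 9 replication genes, where 30% of all genes reached it. The highest array was the WT HRF array for 6 of 9 replication genes, where it was the highest for 20.2% of all genes, and for none of the 22 mitotic genes. The lowest array was often shared between the roles. It was the HRF array labelled FceRIa KO for 5 of 9 replication and 20 of 22 mitotic genes, where it was the lowest for 19.8% of all genes.

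Rrm2, the small subunit of ribonucleotide reductase, was the replication gene that followed the mitotic order. It stood at 1.10 and 0.74 in WT, at 0.78 and 1.23 with the FcRg KO label, and at 0.93 and 0.43 with the FceRIa KO label, with ratios of -0.37, 0.45 and -0.50. Its WT ratio was the lowest of all members. Mcm2, a helicase subunit, stood at -0.30 and -0.21 in WT, at -0.50 and -0.43 with the FcRg KO label, and at -0.58 and -0.81 with the FceRIa KO label, so that both WT arrays were above the other 4. Tyms, thymidylate synthase, stood at -3.15 and -3.04 in WT, at -3.17 and -3.27 with the FcRg KO label, and at -3.44 and -3.20 with the FceRIa KO label. Pcna stood at 3.83 and 3.94 in WT, at 3.80 and 3.87 with the FcRg KO label, and at 3.61 and 3.72 with the FceRIa KO label. Tyms and Pcna were lowest on the PBS array labelled FceRIa KO, and for both the HRF array of that label was the higher one.

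The other Mcm genes varied least. Mcm6 stood at 3.40 and 3.47 in WT, at 3.28 and 3.37 with the FcRg KO label, and at 3.30 and 3.23 with the FceRIa KO label. Mcm7 stood at 2.11 and 2.01 in WT, at 2.19 and 2.11 with the FcRg KO label, and at 2.12 and 1.95 with the FceRIa KO label. The 2 ranges were 1.18-fold each, and those of Mcm3, Mcm4 and Mcm5 were 1.23-fold, 1.19-fold and 1.25-fold. Without Rrm2, the other 8 replication genes had HRF to PBS ratios between -0.11 and 0.21 in WT, between -0.10 and 0.29 with the FcRg KO label, and between -0.23 and 0.24 with the FceRIa KO label.

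In both labelled knockouts the HRF to PBS ratios of Foxm1, E2f1 and Tk1, by brightest probe, lay between the medians of the 2 roles. In WT, Foxm1 (-0.30) and E2f1 (-0.33) lay below both medians. Foxm1, a transcription factor of late cell cycle genes, stood at -2.24 and -2.54 in WT, at -2.38 and -2.02 with the FcRg KO label, and at -2.16 and -2.66 with the FceRIa KO label. Its ratio with the FceRIa KO label was -0.50 by the brightest probe and 0.046 as the mean of its 2 probes, the second of which was well above background on 5 arrays. Tk1, which salvages thymidine, stood at -0.02 and -0.04 in WT, at -0.18 and 0.26 with the FcRg KO label, and at 0.00 and -0.31 with the FceRIa KO label. E2f1 stood at -0.24 and -0.57 in WT, at -0.39 and -0.27 with the FcRg KO label, and at -0.36 and -0.71 with the FceRIa KO label. Foxm1 and Tk1 shared the extremes of the mitotic genes, while E2f1 was highest on the WT PBS array.

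Each gene was also set against its own mean over the 6 arrays, and the median deviation was taken by role. The mitotic genes stood at 0.04 (PBS) and 0.02 (HRF) in WT, at -0.20 and 0.50 with the FcRg KO label, and at 0.08 and -0.42 with the FceRIa KO label. The replication genes stood at 0.04 and 0.14, at -0.05 and 0.04, and at -0.04 and -0.11 on the same arrays. Replication minus mitotic was therefore -0.46 after HRF with the FcRg KO label and 0.31 after HRF with the FceRIa KO label, and between -0.12 and 0.15 on the other 4. Of the 22 mitotic genes, 21 were highest on the first of these HRF arrays, where 16.2% of all genes were, and 20 were lowest on the second, where 19.8% were. Of the 34 members measured on all arrays, 23 were both highest on the first of these arrays and lowest on the second, where 3.12% of all genes were. They comprised 20 of 22 mitotic genes, 1 of 9 replication genes (Rrm2), and Foxm1 and Tk1.

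**Figure D3:**
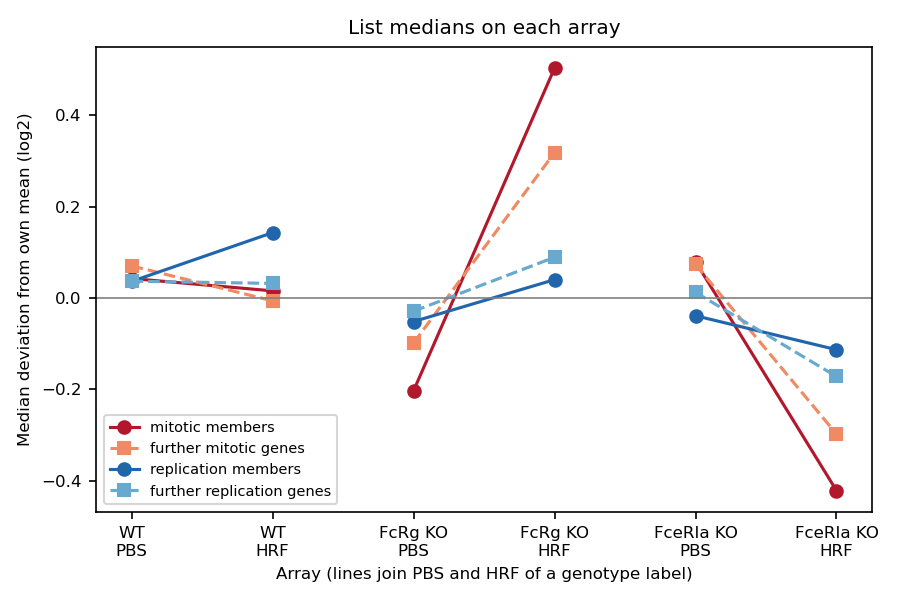
Points are the median, over the genes of a list, of each gene's deviation from its own mean over the 6 arrays (log2), and lines join the PBS and HRF arrays of a label. The mitotic members run from -0.20 to 0.50 with the FcRg KO label and from 0.08 to -0.42 with the FceRIa KO label, while the replication members stay between -0.11 and 0.14.

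Between the labels under the same challenge, the mitotic genes were further apart on HRF than on PBS. These comparisons share arrays with the ratios above and are not independent of them. On HRF, the array labelled FcRg KO was above that labelled FceRIa KO by a median of 0.88 over 23 mitotic genes (1.84-fold) and 0.16 over 9 replication genes. At least 1.5-fold higher were 22 of 35 members, where 5.62% of genes were, and at least 2-fold higher were 7, where 1.84% were: Kif20a, Prc1, Cdk1, Ccnb2, Tpx2, Birc5 and Cenpe. Cenpf alone was at least 1.5-fold lower, where 4.39% were. On PBS the same comparison gave -0.28 and -0.02, with 0 members at least 1.5-fold lower, where 2.95% of genes were, and Cenpf alone higher, where 5.59% were. Against WT on HRF, mitotic genes stood at 0.46 with the FcRg KO label and -0.46 with the FceRIa KO label, so the WT HRF array lay between the other HRF arrays. At least 1.5-fold higher and lower were 7 and 0 of 35 members with the first label, where 4.5% and 8.75% of genes were, and 1 and 5 with the second, where 3.51% and 9.24% were. Over the settings tried, these last counts ran from 0 to 2 and from 2 to 9. Against WT on PBS the mitotic genes stood at -0.12 and 0.02. Higher and lower were 0 and 2 members with the FcRg KO label, where 2.73% and 10.7% of genes were, and 0 and 1 with the FceRIa KO label, where 1.45% and 11.5% were. The median of -0.12 turned to 0.15 when arrays were scaled on the median, which moved all genes by 0.27.

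A linear model fitted with limma over all 17615 genes put the opposite responses to a test, with genotype and challenge as additive terms and a term for the HRF response with the FcRg KO label minus that with the FceRIa KO label. No member passed an adjusted p of 0.05, and no gene of the 17615 did (0% higher and 0% lower). The median of this difference was 1.11 over 23 mitotic genes, 0.16 over 9 replication genes and -0.00 over all genes. Prc1 (1.69, SE 0.24) and Kif20a (1.68, SE 0.24) had the smallest p among members, each with a limma adjusted p of 0.905. At an unadjusted p under 0.05 there were 20 of 35 members, all mitotic, 19 positive and Cenpf negative, where 4.29% of all genes were, 1.81% positive and 2.48% negative. The fit has 1 residual degree of freedom, and its p-values measure the spread between arrays of different groups, not between mice. Because the members were chosen with earlier results of these data known, their share beside that of all genes is a description and not a test.

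The additive terms called no member either. In this fit, HRF responses that differ between the labels count as residual spread. The opposite responses of the mitotic genes thus widen their SEs (Prc1 0.37 and Kif20a 0.37 for the average HRF effect). Counts of members below therefore cannot be read against the shares of all genes. For the average HRF effect limma called 0 of 17615 genes, 0 members were under an unadjusted p of 0.05, where 8.8% of genes were, and the lowest adjusted p of a member was 0.555 (Bub1b). For the FcRg KO label against WT, 0.00568% of genes were called higher and 0.142% lower, and 0 members were under an unadjusted p of 0.05, where 13.5% of genes were. For the FceRIa KO label against WT, no gene was called, and 1 member, Mcm2, was under an unadjusted p of 0.05, where 13% of genes were. Mcm2 was lower by a log2 difference of -0.44 (SE 0.12, limma adjusted p = 0.325), lower on 2 of 2 arrays.

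Further probes gave another reading of 7 mitotic genes. In all, 9 further probes of Mki67, Ccnb1, Birc5, Kif2c, Tpx2, Ube2c and Cdca8 were well above background on all 6 arrays. With the FcRg KO label all 9 were higher on HRF, with a median of 0.64 and a range of 0.08 to 0.93. With the FceRIa KO label all 9 were lower, with a median of -0.44 and a range of -1.65 to -0.21. In WT all 9 were lower, with a median of -0.07 and a range of -0.59 to -0.02. The HRF array labelled FceRIa KO was the lowest for 7 of 9, and that labelled FcRg KO the highest for 4 of 9. The further probes of Ccnb1 and Kif2c were highest on the WT PBS array instead, and those of Mki67 and Tpx2 on the PBS array labelled FceRIa KO. All these probes share their arrays and RNA with the first ones.

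Other genes of the same processes were read from lists of names. These lists too were chosen with earlier results of these data known, so counts over them describe the arrays and test nothing. Of 75 further mitotic genes on the arrays, the median HRF to PBS ratio was -0.09 in WT, 0.49 with the FcRg KO label (68 of 74 compared higher) and -0.38 with the FceRIa KO label (69 of 73 lower). At least 1.5-fold were 24 and 19 of them in those directions, where 3.44% and 2.54% of all genes were. The largest measured ratios were those of Kif18b, a microtubule motor (0.05, 0.70 and -1.29), Iqgap3 (-0.31, 0.58 and -1.11), and Cdc25c, a phosphatase that activates Cdk1 (-0.64 and 1.09, not well above background on the HRF array labelled FceRIa KO), in the order WT, FcRg KO and FceRIa KO. Of 71 measured on all arrays, 42 had the same highest and lowest array as the mitotic members, where 3.12% of all genes did. The limma difference of responses was positive for 73 of 75 with a median of 0.82, none passed an adjusted p of 0.05, and 35 had an unadjusted p under 0.05, where 4.29% of all genes had.

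Further replication genes stood at medians of 0.00, 0.14 and -0.19 over the labels, with 3 of 50 at least 1.5-fold higher with the FcRg KO label, where 3.44% of all genes were, and 3 of 48 at least 1.5-fold lower with the FceRIa KO label, where 2.54% were. Cdc45, a partner of the Mcm helicase, stood at -0.24, 0.12 and -1.03 and the nucleoside kinase gene Dck at 0.62, 0.17 and 0.09. The limma difference of responses had a median of 0.31 and was positive for 45 of 50, with 0 called and 5 at an unadjusted p under 0.05, where 4.29% of all genes were. Of 47 measured on all arrays, 9 had the highest and lowest arrays of the mitotic members, where 3.12% of all genes did. The HRF array labelled FceRIa KO was the lowest for 25 of the 47, where it was for 19.8% of all genes. On HRF, 38 of 50 were higher with the FcRg KO label, where 49.2% of all genes were. With the FceRIa KO label 39 of 48 were lower, where 47.8% of all genes were higher.

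Genes that act earlier, at the decision to divide, had medians between -0.02 and 0.13 over the labels. Among those measured on all arrays, 2 of 23 and 0 of 16 had the mitotic members' highest and lowest arrays, against 3.12% of all genes. The 23 G1 cyclins, kinases, E2F factors and pocket proteins had medians of 0.02, 0.13 and 0.01, and the cyclin-dependent kinase inhibitors and p53 targets 0.02, -0.02 and 0.06. In the first list, Myc, a growth-promoting transcription factor, stood at 1.64, 0.24 and 0.55 over WT, FcRg KO and FceRIa KO labels, its relative Mycn at -1.14, -0.78 and -0.74, and E2f8, an E2F repressor that is itself expressed in S phase, at -0.10, 0.77 and -0.63. Among the inhibitors, Cdkn2a stood at 1.33, 0.11 and -0.14, Cdkn1a (p21) at 0.90, -0.26 and 0.20, and Cdkn1c (p57) at -0.73, 0.03 and -0.22. The largest ratio of each list was in WT, where the mitotic members had a median of -0.04. In limma's difference of responses 0 genes of either list were called. At an unadjusted p under 0.05 were 1 of 23 and 1 of 17, where 4.29% of all genes were.

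Markers of cell types that divide, or that could be carried into a lung sample, were read beside the mitotic genes. Markers of NK cells had medians of 0.15, 0.30 and -0.44 over the labels, with 10 of 10 well above background on every array, and their summed signal, in multiples of the 75th percentile, ran from 17.0 on the HRF array labelled FceRIa KO to 34.2 on the WT HRF array. In that list Gzmb stood at 1.64, 0.10 and -0.18 and Eomes at 0.17, 0.30 and -0.45. Erythroid markers (20 of 20 above background) had medians of -0.24, 0.30 and -0.26, with summed signals of 481 to 728, lowest on the WT HRF array and highest on the HRF array labelled FcRg KO. The list was split: 15 of 20 were higher on HRF with the FcRg KO label, where 49.2% of all genes were. With the FceRIa KO label 7 of 20 were higher, where 47.8% of all genes were. Against its median, the summed signal there rose from 519 on PBS to 612 on HRF. Rhd, an erythrocyte membrane protein, stood at -0.54, 1.24 and -0.45. Alveolar macrophage markers (11 of 11) had medians of 0.27, 0.13 and -0.25 and sums of 214 to 376. This list was split too: with the FceRIa KO label 5 of 11 were higher on HRF, where 47.8% of all genes were. Its sum with that label was 236 on PBS and 237 on HRF. Neutrophil precursor markers (13 of 13) had medians of 0.18, 1.09 and 0.15 and sums of 173 to 302. These lists share a bright gene that is a large part of both sums, so the sums are not separate readings. Their part in the mitotic values was not tested.

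Tissues at the margin of the lung also differed between arrays. Brown and white fat markers, of which 9 of 10 were well above background on every array, had medians of 0.05, -1.28 and 1.21, the reverse of the mitotic genes, and summed signals of 95.3 to 210. Ucp1, the uncoupling protein of brown fat, stood at -0.62 and -0.78 in WT, 3.85 and -2.59 with the FcRg KO label, and -1.93 and 0.84 with the FceRIa KO label. Cardiac muscle markers (10 of 10) had medians of -0.37, -0.91 and -0.16 and sums of 270 to 520, highest on the PBS array labelled FcRg KO. Their part in the mitotic values was not tested. Thymocyte markers, 11 of 15 above background on every array, had medians of 0.02, -0.25 and 0.00 and sums of 10.5 to 12.8. B cell and germinal centre markers, 9 of 14 above background on every array, had medians of 0.17, -0.03 and 0.23 and sums of 13.5 to 39.9. The lung markers themselves had medians of 0.02, 0.17 and 0.08.

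**Figure D4:**
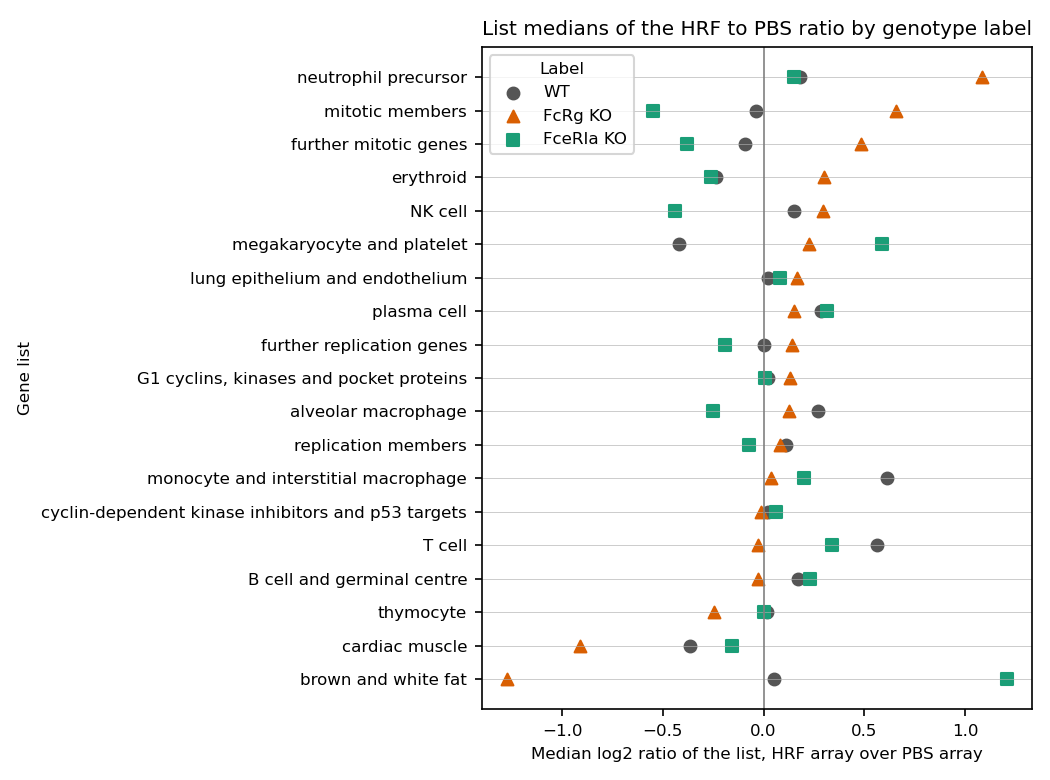
Each row is a gene list, and symbols give its median log2 ratio of the HRF array over the PBS array for the labels WT, FcRg KO and FceRIa KO. The mitotic members (-0.04, 0.66 and -0.55) and the further mitotic genes lie on opposite sides of 0 in the labelled knockouts. The NK cell, erythroid and alveolar macrophage markers also do, and, nearer to 0, so do the further replication genes (0.14 and -0.19) and the replication members (0.08 and -0.07). The fat markers (0.05, -1.28 and 1.21) lie the other way round.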

How the data were processed

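Scanner output came from Feature Extraction (version 10.7.3.1 in the file headers) on a design annotated on mm9. Per the file headers, the deposited processed signals are intensities after background subtraction and spatial detrending, with no scaling between arrays. The deposited median spot and background intensities served an alternative. A deposited value table holds log2 values of unstated centring, whose HRF minus PBS differences correlated with those used here at r of 0.997 to 0.998 over probes.

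Values are log2 processed signals relative to each array's 75th percentile. Control spots and outlier spots were left out and repeated spots averaged. Of 55681 probes, 26056 were named through RefSeq accessions (table on GRCm38.p6), and the brightest probe of a gene was used. A value not well above background entered a ratio at its own signal or, where that was lower, at the lowest measured signal of its array. With 1 array per group, ratios had no test, and genes past 1.5-fold and 2-fold were counted. limma 3.58.1 in R 4.3.3 fitted genotype and challenge (2 residual degrees of freedom), and the response difference as an added term (1 degree of freedom), with Benjamini-Hochberg adjustment at 0.05 over all genes, after a check on simulated data. Python 3.11.15, numpy 2.4.6, pandas 2.3.3 and matplotlib 3.10.9 were used.

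Alternatives were normexp correction (offset 50) with quantile normalization, the value table, median scaling, no or a stricter filter on dim probes, the mean of all probes, each genotype left out, Tk1 counted as a replication gene, and means for medians. The members and gene lists were chosen with earlier results of these data known. Values on every array are given for the 5 mitotic and 4 replication genes with the largest range among those measured on all arrays, the 2 of each with the smallest, Foxm1, E2f1, Tk1 and any member 2-fold apart; up to 3 genes with the largest ratio are named per pathway list and up to 2 with the largest range per marker list. Bub1b was singled out after its values were seen. A few genes that these rules name are not reported here.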

Additional observations from a re-analysis of the deposited data

Results flagged for a closer look

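The HRF response of the mitotic genes differed in direction between the arrays labelled FcRg KO and FceRIa KO. The median difference, first label minus second, was 1.12 over the 22 mitotic genes measured on all 4 arrays, with 21 of 22 positive and a range of -0.12 to 1.69. The same difference over the 9 replication genes had a median of 0.16 and a range of -0.33 to 0.95. Gene by gene, limma passed none of the members for this term, the lowest adjusted p being 0.905, and over the settings tried the lowest was 0.07. With 1 array on each side, the arrays and the groups cannot be told apart.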

How the results depend on the processing

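The median HRF to PBS ratio of the mitotic genes stayed between 0.60 and 0.66 with the FcRg KO label and between -0.56 and -0.44 with the FceRIa KO label over the settings tried. Replication minus mitotic on the HRF arrays stayed between -0.46 and -0.38 and between 0.25 and 0.35. Median scaling took the median over all genes from -0.05 to 0.18 in the WT ratio. For the FcRg KO label against WT on PBS, median scaling took it from -0.01 to 0.27. Median scaling also took it from -0.04 to 0.20 for the FceRIa KO label against WT on PBS. It gave 0.20 for the members, 0.19 for mitotic and 0.34 for replication genes in WT; 0.15, 0.15 (both reversed) and 0.25 for the second comparison; and 0.25, 0.26 and 0.14 for the third. With normexp the FcRg KO to FceRIa KO ratio on HRF was 0.65 over members and 0.71 over mitotic genes. WT ratios that changed sign were Cdk1 (0.033) and Kif2c (0.076) with normexp, and Top2a (0.071), Cdk1 (0.073), Kif23 (0.057), Kif2c (0.051) and Prc1 (0.11) with median scaling. Foxm1 turned to 0.046 with the FceRIa KO label as a mean of probes.

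Counts past 1.5-fold moved more. The 15 members higher with the FcRg KO label became 12 to 17. The 7 lower with the FceRIa KO label became 4 to 10, with 4 under normexp and 4 under median scaling. For the FceRIa KO label against WT on HRF, the 5 lower became 2 with normexp, 9 with the value table, 2 with median scaling and 8 with mean probes, and the 1 higher became 0, 2 and 2 in the first 3. With normexp the single calls of Cenpf became 0 in each comparison that had one. With only probes above background on both arrays compared, they became 0 except for the FceRIa KO label against WT on HRF. There Cenpf was well above background on both arrays, with a ratio of 1.44. For the FcRg KO label against WT on PBS, the 2 lower became 1 with normexp, 0 with median scaling (1 higher) and 4 with mean probes. For the FceRIa KO label on PBS, median scaling gave 1 higher and mean probes 2 lower. Mean probes gave 2 lower for FcRg KO against FceRIa KO on PBS. Among all genes the WT shares past 1.5-fold were 4.34% higher and 1.66% lower with normexp, and 10.5% and 4.53% with median scaling. Limma called 10 genes for the response difference with median scaling, none a member. The cause of these changes was not tested.

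No paired analysis was possible because the labels carry no replicate numbers and each group has 1 array. Signals near background, such as those of Cenpf, and the number of arrays limit the precision.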

Other observations

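Megakaryocyte and platelet markers, read as a gene list that includes none of the mitotic genes, had median HRF to PBS ratios of -0.42 in WT, 0.23 with the FcRg KO label and 0.59 with the FceRIa KO label. Clec1b, a platelet lectin receptor, stood at 0.74 and 0.16 in WT, at 0.76 and 1.02 with the FcRg KO label, and at 0.86 and 1.56 with the FceRIa KO label. Treml1, a platelet granule receptor, stood at 1.32 and 1.04, at 1.56 and 1.90, and at 1.70 and 2.41 on the same arrays. All 11 markers were highest on the HRF array labelled FceRIa KO, where 12.4% of all genes were. On that array 20 of 22 mitotic genes were lowest, where 19.8% of all genes were. The WT HRF array was the lowest for 10 of 11 markers, where it was for 23.3% of all genes. A link between these lists was not tested. T cell markers had medians of 0.56, -0.03 and 0.34, and markers of monocytes and interstitial macrophages 0.61, 0.04 and 0.20. Plasma cell markers had medians of 0.29, 0.15 and 0.32.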
